A study of Homo sapiens with 7 samples.

Results

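NCI-H520 cells given an shRNA against nocturnin (NOC, gene symbol NOCT) were compared with cells given an shRNA against CNOT6L or CNOT7, using the single-colour array of each. These 3 of the 7 arrays of the series were chosen because they lay in row 2 of the slide, while both controls (empty vector and non-target shRNA) and the arrays for PARN and CNOT6 lay in row 1. The CNOT6L and CNOT7 shRNA arrays are called the mates of the NOC shRNA array here, and they are not untreated controls, since each carries a knock-down of its own. NCI-H520 is an established human cell line that was derived from a squamous lung tumour. The comparison asks which mRNAs differ when nocturnin is targeted, with the slide row, though not the column, shared. Cells of all 3 groups received 6 µg of a pLKO.1 plasmid encoding the shRNA with cationic liposomes, were selected with puromycin at 6 µg/mL from 12 h after transfection, and were harvested at 72 h. With 1 array in each group the differences have no replicates behind them, and no p-value is given. The labels give the same target accession, that of nocturnin, for the NOC shRNA and the CNOT6L shRNA, and they give no shRNA sequence.

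Nocturnin belongs to the same exonuclease-endonuclease-phosphatase family as CNOT6, CNOT6L and ANGEL proteins and was first described as a rhythmic mRNA of the retina. It has long been listed among the deadenylases, enzymes that shorten the poly(A) tail of mRNA, and it has also been shown to remove a phosphate from NADP(H). CNOT7 and CNOT6L are catalytic subunits of the CCR4-NOT complex, the main cytoplasmic deadenylase.

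The level of a probe is its processed signal on the log2 scale after the 75th percentile of that array was subtracted. Of 42405 gene probes, 36371 were well above background on the 3 arrays and were compared. The share of probes above background was close on the 3 arrays, 87.8% for NOC shRNA, 87.9% for CNOT6L shRNA and 88.0% for CNOT7 shRNA. The NOC shRNA image was extracted from its scan on another day than the other images, and what this did to the values was not tested. Of the probes compared, 98.5% lay within 2-fold between the NOC and CNOT6L shRNA arrays and 99.4% between the NOC and CNOT7 shRNA arrays. The SD of these differences was 0.33 and 0.28 log2, against 0.31 between both mates.

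The targeted mRNA was examined first. NOCT was read by 1 probe on 1 spot, with a level of -4.22 on the NOC shRNA array, -3.93 with CNOT6L shRNA and -4.14 with CNOT7 shRNA. In row 1 it was -3.63 with empty vector, -4.03 with non-target shRNA, -3.82 with PARN shRNA and -3.79 with CNOT6 shRNA. The NOC shRNA array was the lowest of the 7, but its difference from the CNOT7 shRNA array was -0.09 log2 and from the CNOT6L shRNA array -0.30, and the mean difference from both corresponds to 87.6% of the mates' level. Both lie inside the spread of all probes between arrays, so these arrays do not show a lowered NOCT mRNA beyond that spread. Where on the transcript the probe binds was not analysed here.

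The mates differed from the NOC shRNA array in their own targets. CNOT7, the catalytic subunit that pairs with the CNOT6 proteins, was read by 2 probes. The brighter gave 2.11 with NOC shRNA, 1.99 with CNOT6L shRNA and 0.96 with CNOT7 shRNA, and the other 1.94, 2.05 and 0.84 in the same order. CNOT6L, also read by 2 probes, was at -0.72 and -0.99 with NOC shRNA, at -1.24 and -1.39 with CNOT6L shRNA, and at -0.67 and -0.87 with CNOT7 shRNA. Each of these mRNAs was thus lowest where its own shRNA was given, whatever the accession in the labels, and the NOC shRNA array lay with the other arrays.

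None of the 12 deadenylase genes on the array was called by the rule described below. ANGEL1, a relative of nocturnin, was at -1.42 with NOC shRNA, the lowest of the 7 arrays, and 0.27 and 0.42 log2 lay between it and the CNOT6L and CNOT7 shRNA arrays. ANGEL2 was at -0.04 by one probe, 0.26 and 0.07 above the mates, and at -1.65 by the other, 0.03 above each. CNOT8, the paralog of CNOT7, was at 2.33, below both mates by 0.16 and 0.27. CNOT6, PAN2, PAN3, PARN, PDE12 and TOE1 had mean differences from the mates between -0.00 and 0.26.

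**Figure D1:**
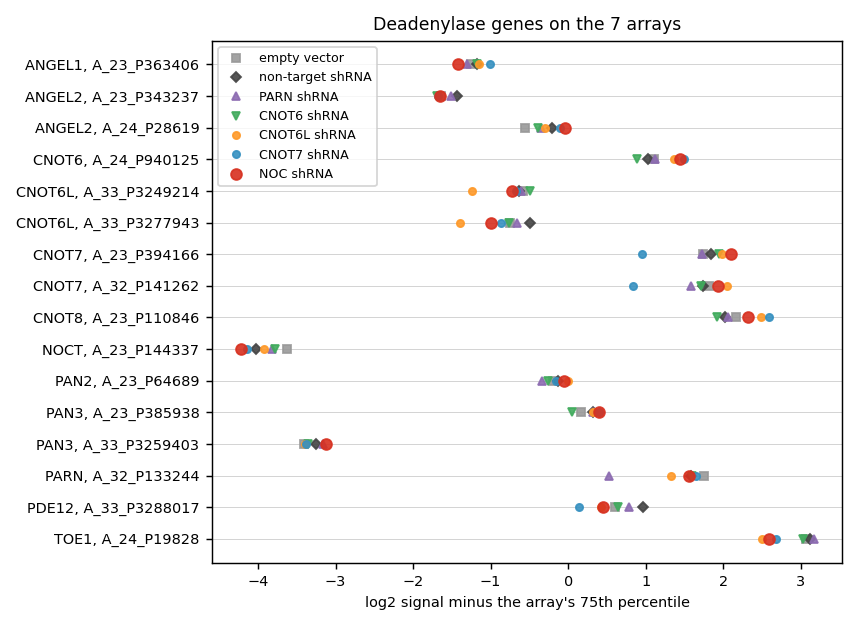
Levels of the deadenylase genes (log2 signal minus the array's 75th percentile, x axis) for each probe (y axis) on the 7 arrays, 1 point an array. The NOC shRNA array is lowest for NOCT by 0.09 log2, while CNOT7, CNOT6L and PARN are each lowest on the array of their own shRNA by a wider gap.

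A probe was called when the NOC shRNA array was at least 2-fold above, or at least 2-fold below, each of both mates, and the smaller of these differences is its size. By this rule 43 probes were higher with NOC shRNA, 0.118% of those compared, and 31 were lower, 0.0852%. When each mate was instead compared with the remaining arrays of row 2, the CNOT6L shRNA array had 147 higher and 64 lower, and the CNOT7 shRNA array 44 higher and 10 lower. The median size was 1.35 log2 among the higher probes and -1.19 among the lower ones. The 4 arrays of row 1 were not used by the rule. The NOC shRNA value was, so setting it against row 1 is no independent check of a call. Of the 43 higher probes 38 were highest on the NOC shRNA array among all 7 arrays, and 28 were 2-fold above both the empty-vector and the non-target array. Of the 31 lower probes 26 were lowest among the 7 and 21 were 2-fold below both of these controls. Of 34514 probes well above background on the NOC shRNA and both control arrays, 139 were 2-fold above both controls and 385 2-fold below. Among all probes above both mates by any amount, 32.6% were the highest of the 7, and among those below both mates 38.1% were the lowest. These shares include small differences and are not matched to the 2-fold calls.

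Higher calls were mostly dim. Of the 43 higher probes 27 lay in the dimmest of 4 equal signal classes and 1 in the brightest, and of the 31 lower probes 12 and 2. Probes on a single spot, 28747 of those compared, carried 35 of the higher and 29 of the lower calls, the 6704 probes on 2 spots carried 8 and 2, and none of the 920 probes on 10 spots was called. Of the called probes 25 higher and 14 lower ones have a gene symbol, covering 24 and 13 genes. For 7 of the 24 genes another probe was compared and not called, 13 such probes in all, of which 4 lay above both mates and 4 below both. For 2 of the 13 lower genes there were 3 such probes, of which 1 lay below both mates and 2 above both. With normexp background correction, which draws dim signals together, 15 higher and 5 lower probes passed the 2-fold rule, all of them among the 74. The named genes among these were ELMOD3, FAM50B, ACKR3, RNA5-8SN5, CTLA4, FRMPD1, SBSPON and BHLHE22 as higher and GALNT2 and LINC02035 as lower.

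**Figure D2:**
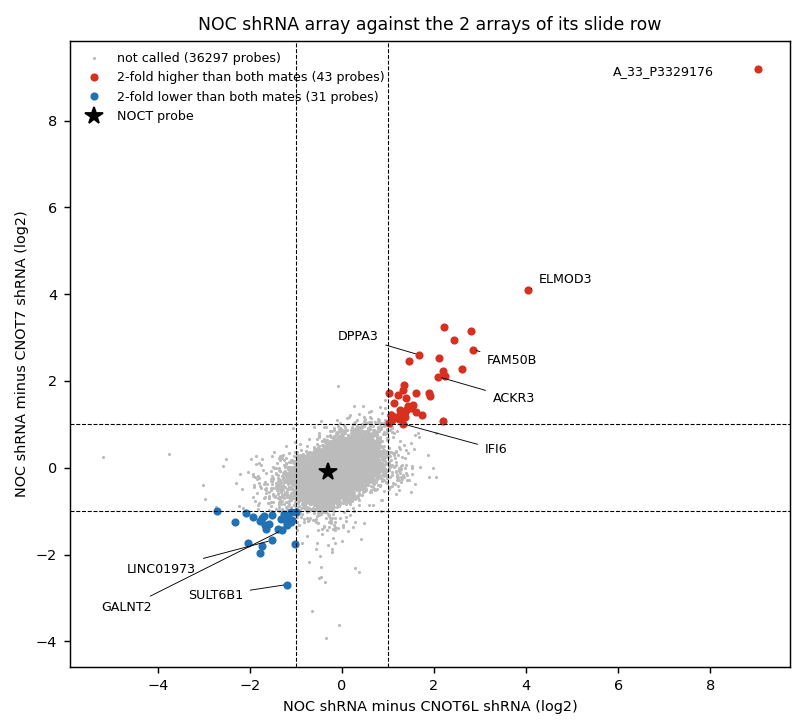
Each point is 1 of 36371 probes, with its log2 difference between the NOC and CNOT6L shRNA arrays on the x axis and between the NOC and CNOT7 shRNA arrays on the y axis. Dashed lines mark 2-fold. The 43 higher probes lie at the upper right and the 31 lower ones at the lower left, and the NOCT probe (star) lies in the cloud at -0.30 and -0.09.

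The most extreme probe stood far from every other. A_33_P3329176, which the array files pair with a transcript identifier and the gene table leaves unnamed, was at 4.70 with NOC shRNA and between -4.48 and -4.00 on the other 6 arrays, a difference of 9.03 log2 from the nearer mate. It is a single spot. The 20 other spots within 2 rows and columns of it had a median difference from the mates of 0.02, with a range of -0.71 to 1.48. ELMOD3, an ELMO-domain protein with activity toward small GTPases, came next. Its probe A_33_P3297302, also a single spot, was at 2.68 with NOC shRNA, -1.36 with CNOT6L shRNA, -1.42 with CNOT7 shRNA and between -1.32 and -0.97 in row 1. The 3 other probes of ELMOD3 did not follow it, with mean differences from the mates of -0.06, 0.10 and 0.19. A change of the whole ELMOD3 mRNA is therefore not what these 4 probes show.

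ACKR3, an atypical chemokine receptor that binds CXCL12, had the largest difference among genes on 2 spots. It was at 0.99 with NOC shRNA and at -1.11 with CNOT6L and with CNOT7 shRNA, a difference of 2.10 log2 from each. Each of its spots was 2-fold above each mate, by at most 2.19 log2. In row 1 it was at -1.68 with empty vector, -0.56 with non-target shRNA, -2.00 with PARN shRNA and 0.43 with CNOT6 shRNA, so the NOC shRNA array was the highest of the 7 but only 0.55 log2 lay between it and the CNOT6 shRNA array.

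CTLA4, known as an inhibitory receptor of T cells, was the only gene with 2 different probes called higher. The brighter probe, on 2 spots, was at -0.44 with NOC shRNA, -1.70 with CNOT6L shRNA and -1.66 with CNOT7 shRNA, and in row 1 it was lowest with CNOT6 shRNA at -2.36. The dimmer one was at -3.39, against -4.49, -4.48 and a row 1 range of -5.45 to -4.46. Both probes placed the NOC shRNA array more than 2-fold above all 6 other arrays, the brighter by at least 1.05 log2 and the dimmer by 1.07.

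The other large differences rest on 1 spot each. FAM50B, an imprinted gene without introns, was at -1.46 with NOC shRNA, -4.30 with CNOT6L shRNA and -4.19 with CNOT7 shRNA, and between -6.34 and -4.08 in row 1. DPPA3, a maternal factor of early embryos that guards DNA methylation and one of the genes the study singled out, was at -4.27, -5.94 and -6.87 in the same order, and between -6.47 and -5.53 in row 1. Its smaller difference was 1.67 log2, and the probe was in the dimmest signal class. The study reported DPPA3 as higher after NOC silencing against its controls, and also by RT-qPCR against wild-type cells. With normexp the mean DPPA3 difference from both mates, relative to the median of all probes, was 0.93 in place of 2.16. FRMPD1, a scaffold protein, differed by 1.64 log2, SLC16A14, a monocarboxylate-transporter family member, by 1.60, EML6, a microtubule-associated protein, by 1.38 (its other probe lay 0.30 below the mean of the mates), SPINK14, a protease-inhibitor family member, by 1.32, and BHLHE22, a neuronal transcription factor, by 1.25. On all 7 of these probes the NOC shRNA array was the highest of the 7.

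RNA5-8SN5, a copy of the 5.8S ribosomal RNA gene whose copies the probe cannot tell apart, was at 3.05 with NOC shRNA, 1.60 with CNOT6L shRNA and 0.59 with CNOT7 shRNA. Row 1 spanned 1.48 to 3.43, so the NOC shRNA array lay inside the range of the arrays outside the comparison. Some calls do not hold on both spots, and these examples were picked after their values were seen. The calls for RAP1GAP, a Rap GTPase regulator, and PCSK1, a prohormone convertase, each came mainly from 1 of 2 spots. The RAP1GAP spots on the NOC shRNA array read -3.93 and -5.94, and the PCSK1 spots -4.36 and -5.69. GUCA1B, a photoreceptor calcium sensor and the other gene the study singled out, was not called. The study reported it as lower after NOC silencing against its controls, which is another reference than the mates. The GUCA1B probes were 0.13 above and 0.03 below the mean of the mates. The brighter one was at -0.24 with NOC shRNA, -0.38 with CNOT6L shRNA and -0.02 with CNOT7 shRNA, against 1.92 to 2.14 in row 1, so it separated the slide rows and not the shRNAs of row 2.

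Among the lower probes, GALNT2 and SPINT1 were the ones read on 2 spots, and neither is in the dimmest signal class. GALNT2 starts mucin-type O-glycosylation in the Golgi. It was at -1.11 with NOC shRNA, 0.19 with CNOT6L shRNA and 0.33 with CNOT7 shRNA, and between -0.40 and 0.30 in row 1. Its spots differed from the mates by -1.26 to -1.47. SPINT1, an inhibitor of serine proteases at the surface of epithelial cells, was at 0.45, 1.54 and 1.47 in the same order and between 1.38 and 1.73 in row 1. The spots differed by -1.10 to -1.02. The NOC shRNA array was the lowest of the 7 for both genes. GALNT2 was 2-fold below both controls, while SPINT1 was 2-fold below the non-target array and just short of it against the empty vector.

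MPP2, a membrane scaffold of the guanylate-kinase family, was the only gene with 2 different probes called lower. One was at -3.59 with NOC shRNA, -2.48 with CNOT6L shRNA and -2.36 with CNOT7 shRNA, and the other at -5.26, -4.09 and -4.09. The CNOT6 shRNA array came near it by the first probe, at -3.53, and lay at -4.65 by the other. SNX10, a sorting nexin of endosomes, was at -4.27, -3.07 and -2.95 by the called probe, and its second probe missed the rule with a smaller difference of -0.99. The PARN shRNA array was as low as -6.82 by that second probe, below the -6.78 of NOC shRNA.

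LINC02035 was at -1.89 with NOC shRNA, -0.30 with CNOT6L shRNA and -0.60 with CNOT7 shRNA, and between -1.20 and -0.77 in row 1. TMEM250, a membrane protein, was at -1.49 against -0.38 and -0.25, and KHDRBS2, an RNA-binding splicing regulator, at -4.55 against -3.36 and -3.27. The NOC shRNA array was the lowest of the 7 for these 3 genes. LINC01973, LMO3, TSPAN32, SULT6B1 and LOC441666 had smaller differences between -1.53 and -1.05 on 1 spot each. LOC441666, a transcribed pseudogene, had 2 other probes, and both went the other way, with mean differences of 0.43 and 0.32. For LINC01973 the non-target array was lower still, at -7.10 against -6.93, and for LMO3 the CNOT6 shRNA array, at -6.27 against -6.21. SULT6B1 varied widely, from -4.67 with NOC shRNA to -0.90 with non-target shRNA. COA1, an assembly factor of the respiratory chain, was the nearest inside the rule, at -1.02 from CNOT7 shRNA and slightly less from CNOT6L shRNA, and RBFOX1 was just outside it at -0.99. On the higher side IFI6 was just inside at 1.01, and TGM6 and ADGRG2 were outside at 0.94.

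**Figure D3:**
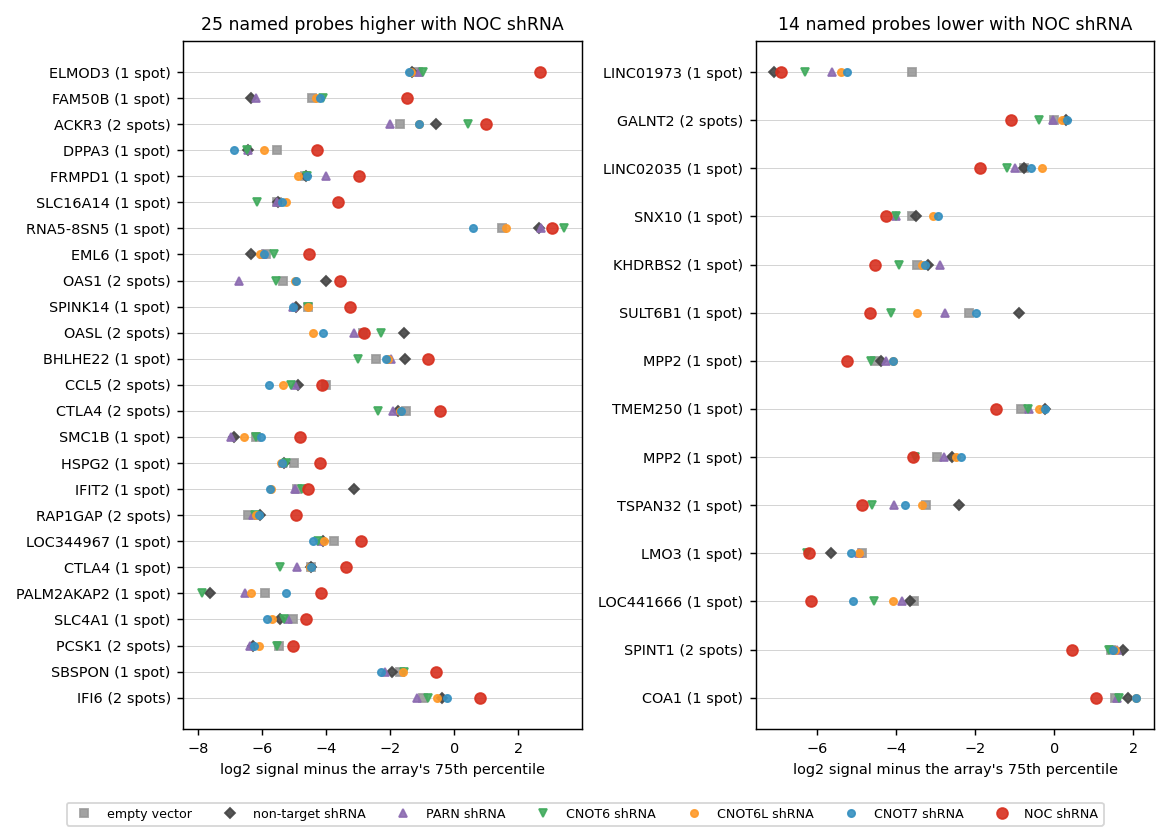
Levels (log2 signal minus the array's 75th percentile, x axis) on the 7 arrays of the 25 higher (left) and 14 lower (right) called probes that have a gene symbol, ordered by the smaller difference from the mates. The red point is the NOC shRNA array. It lies beyond all other arrays for most genes, and inside the row 1 range for RNA5-8SN5, OASL, IFIT2, CCL5, LINC01973 and LMO3.

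Long intergenic noncoding RNA probes, whose positions the array files give on hg19, made up 4 of the 43 higher and 6 of the 31 lower calls, out of 6807 compared. These are 0.0588% and 0.0881% of them, against 0.118% and 0.0852% over all probes, so the lower share was near that of all probes. The largest difference among the lower ones was at chr13:24717800-24728575, with levels of -5.80 with NOC shRNA, -3.76 with CNOT6L shRNA and -4.06 with CNOT7 shRNA. A region at chr19:52576813-52597711 was at -2.96, -5.40 and -5.91 in the same order. Each rests on 1 spot. The 19 other spots within 2 rows and columns of the chr19 spot had a median difference from the mates of 0.09. Their range was -1.44 to 3.87, which reaches beyond the 2.69 of the chr19 probe itself.

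Interferon-response genes were the only one of the 17 gene lists with called members. These genes are switched on by interferons or by sensing of foreign nucleic acid, and their products include sensors such as the OAS enzymes and inhibitors of viral replication such as the IFIT proteins. With 1 probe a gene, the brightest, 29 of its 31 genes were compared. Of these 3 were called higher and none lower, the median difference from the mean of the mates was 0.37 log2 against -0.02 over all probes, and 21 (72.4%) lay above both mates and 2 below both. Over all probes 29.8% lay above both mates and 35.9% below both. At 1.5-fold the list had 6 higher and 0 lower, where 0.462% and 0.833% of all probes passed. As one group is 1 array, the list shares its RNA, labelling and hybridization, and its genes are not independent measures.

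OAS1, which makes the oligoadenylates that activate RNase L, was at -3.56 with NOC shRNA, -4.96 with CNOT6L shRNA and -4.92 with CNOT7 shRNA. Row 1 lay at -5.35 with empty vector, -4.01 with non-target shRNA, -6.71 with PARN shRNA and -5.57 with CNOT6 shRNA. NOC shRNA was thus highest of the 7. IFI6, a small membrane protein that inhibits viral replication, was at 0.80, -0.54 and -0.21 in row 2, and between -1.15 and -0.40 in row 1, more than 2-fold below the NOC shRNA array throughout. It was the one interferon-response gene 2-fold above all 6 other arrays.

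OASL, an OAS relative without enzyme activity, was at -2.81 with NOC shRNA, -4.41 with CNOT6L shRNA and -4.08 with CNOT7 shRNA. In row 1 it was at -2.85 with empty vector, -1.56 with non-target shRNA, -3.13 with PARN shRNA and -2.27 with CNOT6 shRNA, so for OASL it was the mates that were low, and the NOC shRNA array was level with the empty-vector array. IFIT2, which binds viral RNA, was called by its dimmer probe, at -4.57 against -5.73 and -5.74, while its brighter probe was at -1.42 against -2.22 and -2.26. The non-target array was far above it by both, at -3.11 and -0.00. With the 2 control arrays in place of the mates, the mean difference relative to all probes turned to -0.57 for OASL and -0.53 for the called IFIT2 probe.

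MX1, a GTPase against influenza virus, was at 1.21 with NOC shRNA, 0.01 with CNOT6L shRNA and 0.37 with CNOT7 shRNA, with the non-target array at 0.92. ISG15, a ubiquitin-like modifier, was at 2.89, 2.29 and 2.32, and DDX60, a helicase, at -2.78, -3.42 and -3.34. The NOC shRNA array was the highest of the 7 for these 3 genes. IFIT3 was 0.59 above the nearer mate and IFIT1 0.39. Both were below the non-target array, with differences of -0.39 for IFIT3 and -0.50 for IFIT1. STAT2, MX2, IRF7 and USP18, which include the factors that carry the interferon signal, differed little, with mean differences between -0.18 and 0.08.

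Over the list, the NOC shRNA array held the highest value of the 7 for 10 of 29 genes (3540 of 36371 over all probes), the non-target array for 8, CNOT6 shRNA for 6 and CNOT7 shRNA for 5. The PARN shRNA array held the lowest value for 17. NOC shRNA was above the CNOT6L shRNA array for 26 genes, above CNOT7 shRNA for 22 and above non-target shRNA for 17. It was above empty vector and CNOT6 shRNA for 21 each and above PARN shRNA for 25. Apart from the highest values of NOC shRNA, these counts have no share over all probes beside them. The median difference of the list from the non-target array was 0.10 log2, near the 0.06 over all probes. From the empty-vector array, the other control, it was 0.31 against -0.11 over all probes. From the CNOT6L and CNOT7 shRNA arrays it was 0.39 and 0.32 against -0.04 and 0.00. From the CNOT6 and PARN shRNA arrays it was 0.25 and 0.64 against -0.14 and -0.00. All 7 arrays are of cells given a plasmid, and no array of untransfected cells was analysed here.

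**Figure D4:**
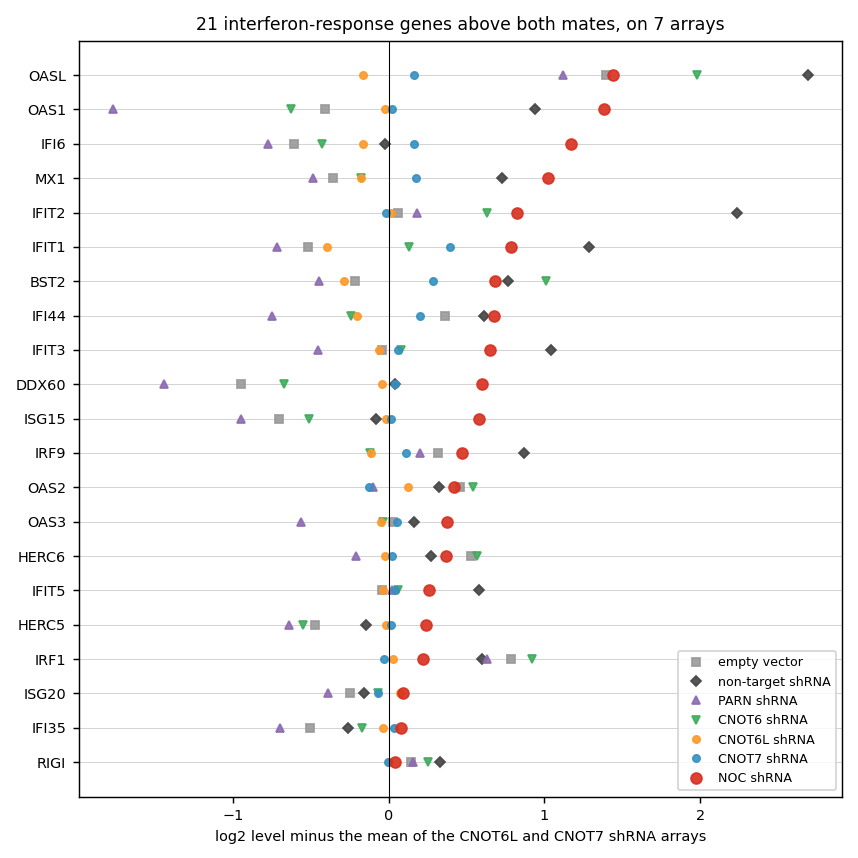
Log2 level minus the mean of the CNOT6L and CNOT7 shRNA arrays (x axis) for the 21 of 29 interferon-response genes on which the NOC shRNA array lay above both mates (y axis), 1 point an array. The NOC shRNA points lie right of both mates by this choice, and the non-target points lie further right for 9 of the 21, by the widest gaps for IFIT2 and OASL.

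Promoters of 3 interferon-response genes that stood 1.5-fold above both mates are shown, because interferon acts on many such genes through a short promoter sequence, the interferon-stimulated response element. Its core was searched as GAAANNGAAA, or TTTCNNTTTC when read on the other strand, in the 250 bases before each start in the RefSeq promoter table of GRCh38.p14. The table held 5 list genes with any probe 1.5-fold higher, and 3 of the 5 had the core before at least 1 start, against 3.71% of all genes in the table and 68.2% of the 22 listed genes that it held. IFI6 (chr1:27672193-27672442, minus strand) had 3 cores, the first 156 bases before the start. IFIT3 had 2 before each of its starts, of which that at chr10:89327747-89327996, plus strand, is shown. OAS1 (chr12:112906712-112906961, plus strand) had no match to this form. The search fixed 2 bases between the GAAA repeats. The gaaacgaaa near the end of the OAS1 window, with 1 base between them, was therefore not counted. Capitals mark the core, and the bases run 5′ to 3′ toward the start.
IFI6: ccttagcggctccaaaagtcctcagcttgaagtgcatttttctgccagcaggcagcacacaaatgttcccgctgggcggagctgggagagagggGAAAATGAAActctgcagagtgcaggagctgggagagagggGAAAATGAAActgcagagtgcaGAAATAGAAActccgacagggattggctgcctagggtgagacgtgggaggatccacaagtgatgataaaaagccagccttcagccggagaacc
IFIT3: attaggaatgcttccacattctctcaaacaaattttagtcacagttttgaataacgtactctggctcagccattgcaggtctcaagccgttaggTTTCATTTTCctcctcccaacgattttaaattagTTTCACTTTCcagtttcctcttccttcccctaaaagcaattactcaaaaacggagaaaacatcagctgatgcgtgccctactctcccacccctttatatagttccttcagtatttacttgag
OAS1: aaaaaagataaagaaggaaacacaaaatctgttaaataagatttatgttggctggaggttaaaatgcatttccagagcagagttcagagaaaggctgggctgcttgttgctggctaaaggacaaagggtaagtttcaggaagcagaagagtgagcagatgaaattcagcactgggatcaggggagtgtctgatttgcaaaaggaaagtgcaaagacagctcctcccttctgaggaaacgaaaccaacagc

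Among all genes called higher that the table held, 1 of 13 had the core, and among those called lower 1 of 11. A match of these letters is a description of the promoter and not a measured site.

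The other 16 lists had no member called in either direction, and their median differences lay between -0.08 and 0.05. Of the circadian clock genes 24 were compared, 11 above and 9 below both mates, and none passed 1.5-fold. DBP, a clock output factor, had a mean difference of -0.41, BMAL1 was at 0.18, CLOCK at -0.15, PER1 at -0.01, PER2 at 0.16 and CRY2 at 0.29. Of the genes of NADP(H) and NAD metabolism, the reaction nocturnin is now known for, 27 were compared, with a median of 0.00, 9 above and 10 below both mates. NADK, the cytosolic NAD kinase, was at 0.09, NADK2, the mitochondrial one, at 0.36 and NAMPT at -0.02. Of 32 lipid and lipoprotein genes, 7 lay above and 14 below both mates, with a median of -0.03.

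The NRF2 and antioxidant list had 1 member past 1.5-fold, AKR1B10, an aldo-keto reductase of aldehydes and lipids. Its probes agreed, at -2.30 and -2.01 with NOC shRNA, -1.11 and -0.86 with CNOT6L shRNA and -1.51 and -1.23 with CNOT7 shRNA, and row 1 lay between -0.90 and -0.54. The NOC shRNA array was the lowest of the 7 by both. NQO1, another NRF2 target, was 0.27 and 0.45 below the mates. The immediate early and inflammatory list had 2 members past 1.5-fold, CXCL1, a neutrophil chemokine, at 0.71 and CCL20, a chemokine of dendritic and T cells, at 0.62. CXCL1 was at -1.56 with NOC shRNA, -3.23 with CNOT6L shRNA, -2.27 with CNOT7 shRNA and -0.72 with CNOT6 shRNA, the highest. No gene of this list was highest on the NOC shRNA array. The lists of p53 targets, G2/M and mitosis, DNA replication, the unfolded protein and integrated stress response, the respiratory chain and muscle contraction had medians from -0.03 to 0.05.

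Cell identity was read from 4 marker lists. None of their genes was called. Of 18 squamous markers 14 were compared, with a median of 0.01. SOX2 was bright on all arrays, at 5.62 with NOC shRNA, while TP63, KRT14, DSG3 and CLCA2, which define squamous epithelium, were not well above background on all 3 arrays, and KRT5 was near the detection limit at -7.06. Median differences were -0.08 for lung adenocarcinoma and alveolar markers, 0.03 for neuroendocrine markers and -0.04 for mesenchymal and blood markers, so no marker list separated the NOC shRNA array from its mates.

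**Figure D5:**
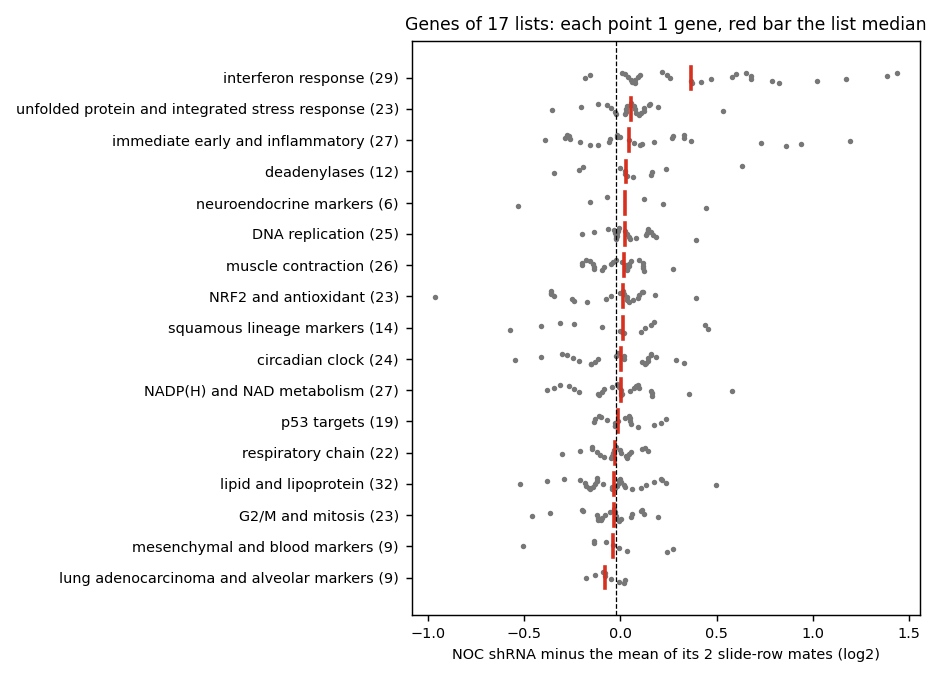
Log2 difference between the NOC shRNA array and the mean of its mates (x axis) for the genes of 17 lists (y axis, number compared in brackets). Each point is 1 gene, the red bar is the list median, and the dashed line is the median of all probes at -0.02. The interferon-response median lies at 0.37 and the other medians between -0.08 and 0.05.

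At the lower threshold of 1.5-fold, 168 probes were higher and 303 lower. Among the 4203 genes with at least 2 probes compared, 4 had 2 probes past 1.5-fold higher and 4 had 2 lower, and they are named here because of these values. The higher ones were CTLA4, IFIT2, CYP1B1, a cytochrome P450 of the aryl hydrocarbon receptor pathway, and KIT, a receptor tyrosine kinase. The lower ones were MPP2, SNX10, AKR1B10 and ADARB2, a relative of RNA-editing enzymes. Both ADARB2 probes were in the dimmest signal class. They read -6.62 and -7.18 with NOC shRNA, level with the -6.63 and -7.12 of non-target shRNA. The KIT probe on 10 spots was at -0.69 with NOC shRNA, -1.45 with CNOT6L shRNA and -1.38 with CNOT7 shRNA, and each of its 10 spots differed from each mate by 0.61 to 0.97. The highest value in row 1 was -1.12, with PARN shRNA, so the NOC shRNA array was highest of the 7 for KIT. CYP1B1 was instead low on the mates, at -1.43 and -1.72 by its brighter probe, with the NOC shRNA array at -0.62 and row 1 at -0.58 to -0.32.

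Probes left out of the comparison can give bounds only. There were 278 probes above background on the NOC shRNA array and on neither mate, of which 47 were at least 2-fold higher, and 308 above background on both mates and not on the NOC shRNA array, of which 59 were at least 2-fold lower. The bound sets a dim probe at its own level or at the lowest level above background on that array, whichever is higher. CXCL10, an interferon-induced chemokine that is on none of the lists and was picked after its values were seen, was at least 3.01-fold higher by one probe and 2.72-fold by another. The CNOT6 shRNA array was higher still for CXCL10, at -5.06 and -5.93 against -5.75 and -6.72 with NOC shRNA. By the same probes the empty-vector array was at -5.99 and -6.81 and the non-target array at -6.39 and -6.77. The mates lay between -9.47 and -7.34, so for CXCL10 it was the mates that were low. SAMD9L, an interferon-induced antiviral protein picked in the same way, was at least 2.72-fold higher.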

How the data were processed

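Total RNA of 7 NCI-H520 cultures was labelled with Cy3 and hybridised to 1 slide, with 1 array per group. The authors deposited scanner files from Agilent Feature Extraction 10.7.3.1 (per the file headers) with signal intensity per spot, and a table of log2 values centred on each probe's median over the arrays, which served as an alternative. Spots flagged as outliers and control spots were left out, log2 processed signals were averaged per probe (34085 probes on 1 spot, 7321 on 2, 999 on 10), and each array's 75th percentile was subtracted. A probe was compared when at least 50% of its spots were well above background on each of the 3 arrays. Probes were named through a RefSeq gene table (24827 of 42405, 19063 symbols). A gene in a list was read by its brightest probe. The call rule (2-fold from each mate) was run on simulated arrays with normally distributed noise. These held no outlying spots, so the run cannot show how often such a spot is called. Python 3.11.15, R 4.3.3 and limma 3.58.1 were used.

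Named genes were the deadenylases, DPPA3 and GUCA1B, which the study singled out, the 12 most extreme named genes in each direction, genes with 2 called probes and called list members. Some list genes are not reported here by name. Members and lists were chosen with earlier results of these data known. The number of arrays limits the precision.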

Additional observations from a re-analysis of the deposited data

How the results depend on the processing

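Counts of called probes followed the threshold, the background treatment and the reference arrays, and the main values were 43 higher and 31 lower. The counts were 168 and 303 at 1.5-fold, 11 and 0 at 4-fold, 8 and 2 on probes with at least 2 spots, 178 and 324 with no filter on dim probes, 26 and 122 with no scaling, 15 and 5 with normexp (offset 50), 139 and 385 with the empty-vector and non-target arrays as reference, and 15 and 5 with all 6 other arrays as reference. With 1 mate left out they ranged from 82 to 142 higher and from 128 to 401 lower. The higher share of calls was 58.1%, and it was 17.6% with no scaling, where the median of all probes moved to -0.26 from -0.02, and 75% with normexp. Quantile and cyclic loess normalization each gave 47 and 28, and the authors' normalized values gave 43 and 31. limma was also run with the mates as 1 arm and 1 residual degree of freedom. The lone NOC shRNA array was assumed to vary like the mates. This run gave 56 higher and 81 lower at a Benjamini-Hochberg threshold of 0.05. The mates carry different knock-downs and are not replicates of 1 condition, so these counts are no test of the NOC shRNA.

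The number of interferon-response genes called higher was 3, and it was 1 with no scaling, 0 with normexp, 1 with the 2 controls as reference, 1 with all 6 arrays as reference, and between 3 and 5 with 1 mate left out. The number above every reference array was 21, and it was 14 of 28 genes with the 2 controls as reference, 15 with no scaling, 10 of 27 against all 6 arrays and between 22 and 26 with 1 mate left out. The list median relative to all probes stayed positive throughout, between 0.21 and 0.42. With the controls as reference the medians relative to all probes were -0.27 for G2/M and mitosis, 0.26 for muscle contraction and 0.29 for the respiratory chain. OASL and the called IFIT2 probe turned to -0.57 and -0.53 with the controls as reference. Among the other values of the called probes with a symbol under the alternatives, 460 stayed within the spread between the mates (0.22 log2) and 76 moved by more without changing sign. NOCT stayed between -0.36 and -0.04 relative to all probes. Why the values moved was not tested.

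No paired analysis was possible because each group has 1 array and the groups share only replicate number 1. Dim signals limit the fold of most called probes.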
